A study of Mus musculus with 20 samples.

Results

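Ovaries of mouse embryos lacking Figla were compared with control ovaries at embryonic day 18.5 (E18.5), shortly before birth, by RNA-seq. The Figla libraries whose names mark them as embryonic were taken, which are 8 of the 20 libraries of the series: 4 named control and 4 named knockout. All were made from ovaries of B6D2F1 mice. The genotype label is Figla+/- for libraries titled control and Figla-/- for those titled knockout, so a control would also carry 1 disrupted copy of the gene. For 4 of the 8 libraries this label disagrees with the library name used here, as described below. The 6 Figla ovary libraries from postnatal day 0 (P0), 3 control and 3 knockout, have the same strain and genotypes and serve for comparison. No treatment is recorded for any group. How many animals or litters a library holds is not given, so each p-value reflects the variation among the sequenced samples, and some of that variation may be technical.

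FIGLA is a transcription factor of the basic helix-loop-helix family that is made in germ cells. It pairs with ubiquitous E proteins and binds the short DNA motif called an E-box, and it is known for activating the genes of the zona pellucida, the coat of the egg. Around birth the mouse ovary goes from nests of oocytes ending meiotic prophase to primordial follicles, in which 1 oocyte is enclosed by pregranulosa cells. Females without FIGLA do not form these follicles and are sterile.

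The labels of these libraries conflict. Library name and title disagree for 4 of the 8 libraries, numbers 2, 4, 5 and 7, and the genotype field follows the title. Grouped by library name, the libraries named control held Figla at 23.9, 20.5, 3.94 and 27.2 CPM (counts scaled to the library's total), and those named knockout at 0.722, 0.961, 1.24 and 1.56 CPM. Every library named control was above every library named knockout, while grouping by title would mix high and low libraries in both groups. The library name was used. Which part of Figla is missing from the disrupted allele is not given in the sources used here, so reads left in knockouts are not assigned to a part of the gene.

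Total counts ranged from 5583392 to 10410503 per library, with 25114 to 27940 genes seen and 1.66% to 2.15% of counts on mitochondrial genes. Chi-square over degrees of freedom, a measure of how far counts differ beyond sampling, was 1.12 between control libraries 1 and 3 and 1.32 between knockout libraries 2 and 4. It was 17 to 62.3 for all other pairs within a group. Each of those near-identical pairs was summed to 1 sample, called control 1-2 and knockout 1-2. Together with control 3 and 4 (libraries 5 and 7) and knockout 3 and 4 (libraries 6 and 8), this gave 3 samples against 3. Values below are in CPM on library sizes scaled by TMM, and a series of 3 values is always in the order 1-2, 3, 4. None of 4 Y-linked genes had a count in any sample, and the pregranulosa marker Foxl2 stood at 68.2 to 163 CPM and the germ cell helicase Ddx4 at 64.5 to 135 CPM.

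Some samples stood apart within their own group. Immediate early genes, which respond to handling and to growth signals, summed to 2749 CPM in control 1-2 and 6175 CPM in knockout 1-2, against 164 to 237 CPM in the other 4 samples. Egr1 alone stood at 848 and 1871 CPM in those samples and at 31.6 to 43.3 CPM elsewhere. Red cell genes summed to 2700 and 3158 CPM in knockout 3 and 4, against 821 to 1099 CPM in the other 4. Control 3 differed from the other controls in its germ cell genes, as described below. Because of this, results are given with all samples and also without control 3 and knockout 3 (2 against 2). Control 3 was low in many oocyte genes, so leaving it out favours calling those genes lower. The 2 against 2 p-values do not allow for that choice.

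Few genes passed the test across all samples. With 3 samples against 3, edgeR's quasi-likelihood test with Benjamini-Hochberg adjustment called 1 of 16131 genes lower in knockouts (0.0062%) and 0 higher (0%), at an adjusted p under 0.05. Unadjusted p was under 0.05 for 326 lower and 281 higher genes. Together these are less than 0.05 of the genes tested, the share awaited with no effect. DESeq2 called 62 lower and 16 higher, and limma voom with sample quality weights 1 and 0. Without control 3 and knockout 3, 18 of 18048 genes were lower (0.0997%) and 0 higher (0%), with 605 and 193 at an unadjusted p under 0.05. Those unadjusted counts together are also below 0.05 of the genes tested, but the lower genes far outnumbered the higher ones. Leaving out control 3 favours lower calls, as said above. Leaving out control 3 alone gave 89 lower genes, and leaving out knockout 3 alone gave 0. With neighbouring library numbers (a control and the next knockout) as a replicate block, edgeR called 25 lower and 3 higher genes; deviations of all 3 neighbouring pairs correlated (0.272 to 0.581), though the labels do not say that neighbours share a litter or day. In bulk ovary RNA, fewer cells of a type and less RNA per cell cannot be told apart, which holds for every germ cell gene below.

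The gene called with all samples was Gm44601 (ENSMUSG00000108315), a long intergenic noncoding RNA at chr7:94368983-94372572 on the minus strand of GRCm38. It stood at 44.0, 26.3 and 25.5 CPM in controls and at 0.299, 0.322 and 0.142 CPM in knockouts. All controls were high, control 3 included, and all knockouts were near 0. The log2 fold change was -6.85 (SE 0.40, adjusted p = 0.00332 by edgeR). It was called lower in 16 of 17 fits, with adjusted p from 2.74e-27 to 0.0569, the exception being the fit without knockout 3.

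The 18 genes called lower in the 2 against 2 fit held Figla itself and the oocyte homeobox gene Nobox. Also among them were Pramef12, Tsga8, Gm44601, D930020B18Rik, Cnpy1, A730082K24Rik, Tmc2, Gm11985, Vil1, Trp63, Phactr3, Ccno, Esrp1, Prdm16 and Aen. Of the 17 named here, 15 are protein-coding and 2 are lincRNAs in GENCODE M21. In 15 of the 18 all 3 knockouts lay below all 3 controls; the exceptions were Tsga8, Trp63 and Ccno, in which control 3 was as low as a knockout. Over all genes tested in the 3 against 3 fit, 3.91% had every knockout below every control and 3.46% every knockout above every control. The 18 were chosen by the 2 against 2 test, on samples that are also counted here. Only control 3 and knockout 3 took no part in that choice, so the share over all genes is not a like comparison.

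**Figure D1:**
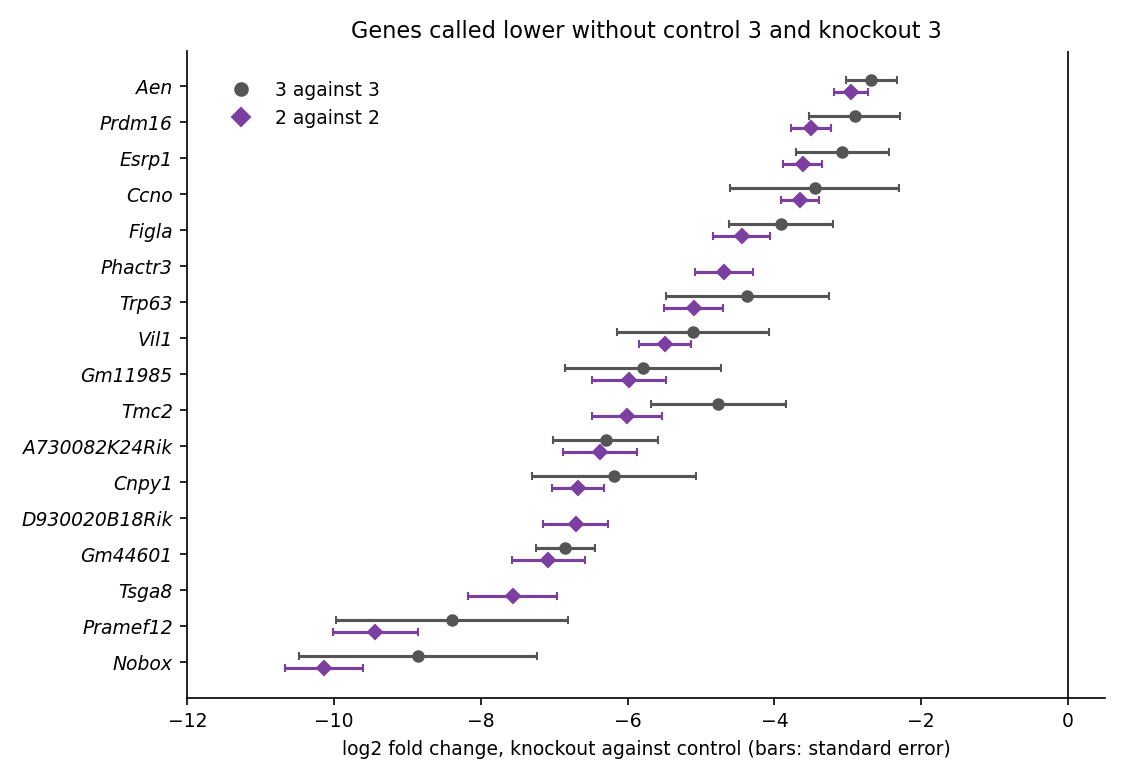
Log2 fold change of knockout against control (x axis) for 17 of the 18 genes called lower without control 3 and knockout 3, from the fit of 3 samples against 3 (circles) and of 2 against 2 (diamonds), with standard errors as bars. All values lie below 0 and the bars are wider with all samples for every gene tested in both fits except Gm44601; 3 genes were not tested with all samples, and fitted values of genes with 3 or fewer knockout counts depend on the prior count.

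Nobox, a homeobox transcription factor needed for oocyte growth, had the largest fitted fold of the 18 genes with 2 against 2. Its level was 74.6, 2.13 and 107.6 CPM in controls and 0.0998, 0.322 and 0 CPM in knockouts. Control 3 was far below the other controls, though above all knockouts. Its log2 fold change was -8.86 (SE 1.62, edgeR adjusted p = 0.411) with 3 against 3. Without control 3 and knockout 3 only 2 knockout counts were left against 2160, a ratio of 1151 (95% counting interval 318 to 9514; counting error only), with an adjusted p of 0.0274 by edgeR. Nobox was called in 8 of 17 fits, with adjusted p from 1.08e-05 to 0.9999; with the block the edgeR adjusted p was 0.00694.

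Figla stood at 22.1, 3.90 and 26.5 CPM in controls and 0.848, 1.29 and 1.57 CPM in knockouts. Control 3 was again the low control, and the groups did not overlap. The log2 fold change was -3.91 (SE 0.71, edgeR adjusted p = 0.411) with 3 against 3 and -4.45 (SE 0.39, adjusted p = 0.0446) with 2 against 2. It was called in 8 of 17 fits, with adjusted p from 1.73e-06 to 0.9999; with the block the edgeR adjusted p was 0.0466.

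The promoters of a few of the genes with low knockout levels show where E-boxes lie. RefSeq windows of 250 bases before to 50 after the start (GRCm38.p6) are printed 5′ to 3′ on the gene's strand, with every CANNTG in capitals; the motif reads the same on both strands. Nobox (chr6:43309505-43309804, minus) and Zp3 (chr5:135979855-135980154, plus) are shown as an oocyte regulator and a zona gene. Their groups did not overlap in CPM, but for Zp3 control 3 and knockout 3 each held only 1 count. Aen (chr7:78895677-78895976, plus, the first of its windows) and Pkd1l1 (chr11:8974660-8974959, minus) are shown as genes in which all 3 controls stood well above the knockouts. The Pkd1l1 window follows a RefSeq start. In GENCODE M21 the gene starts at chr11:8973266 on the minus strand, which lies outside that window.
Nobox: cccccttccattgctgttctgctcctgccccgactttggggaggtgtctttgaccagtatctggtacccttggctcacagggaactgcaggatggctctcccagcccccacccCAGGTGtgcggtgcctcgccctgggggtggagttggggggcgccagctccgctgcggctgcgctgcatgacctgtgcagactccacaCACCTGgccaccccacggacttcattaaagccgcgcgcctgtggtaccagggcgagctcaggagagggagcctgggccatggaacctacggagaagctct
Zp3: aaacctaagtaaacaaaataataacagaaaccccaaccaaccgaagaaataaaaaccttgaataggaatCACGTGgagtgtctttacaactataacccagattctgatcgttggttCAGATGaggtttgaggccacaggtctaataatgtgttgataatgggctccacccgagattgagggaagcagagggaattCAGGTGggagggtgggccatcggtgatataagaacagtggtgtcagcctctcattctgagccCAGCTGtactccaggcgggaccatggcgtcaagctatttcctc
Aen: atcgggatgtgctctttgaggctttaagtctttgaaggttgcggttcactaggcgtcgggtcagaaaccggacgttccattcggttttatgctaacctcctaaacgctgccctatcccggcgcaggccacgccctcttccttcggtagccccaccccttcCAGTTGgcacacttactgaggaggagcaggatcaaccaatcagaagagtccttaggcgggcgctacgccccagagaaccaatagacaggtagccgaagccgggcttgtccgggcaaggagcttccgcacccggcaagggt
Pkd1l1: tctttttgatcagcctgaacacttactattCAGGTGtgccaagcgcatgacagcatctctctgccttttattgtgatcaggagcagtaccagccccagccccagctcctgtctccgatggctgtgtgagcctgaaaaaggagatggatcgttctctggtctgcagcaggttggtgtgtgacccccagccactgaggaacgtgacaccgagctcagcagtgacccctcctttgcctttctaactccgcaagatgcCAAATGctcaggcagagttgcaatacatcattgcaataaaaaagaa
The Nobox window holds 2 E-boxes, that of Zp3 holds 4, that of Aen holds 1 and that of Pkd1l1 holds 2. Of the 18 called genes, 10 had a RefSeq window, and all 10 first windows held at least 1 CANNTG, against 72.1% of the first windows of 27025 genes. A match describes letters and is not a binding site.

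Other called genes followed the pattern of Nobox, with control 3 between the knockouts and the other controls. In 10 of the 18, control 3 was below 0.1 of the mean of the other controls. Pramef12, a member of the PRAME family, was at 63.3, 1.77 and 97.2 CPM in controls and 0.15, 0.322 and 0 CPM in knockouts. Cnpy1, related to regulators of FGF signalling, was at 94.7, 4.97 and 113.1 CPM against 0.798, 0.806 and 1.42 CPM. The knockouts of both genes lay within a narrow range near 0, while the controls spread widely.

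Trp63 encodes p63, which in oocytes guards against DNA damage. It stood at 34.4, 1.06 and 58.7 CPM in controls and 1.25, 1.93 and 1.57 CPM in knockouts, so control 3 lay below every knockout. The log2 fold change was -5.10 (SE 0.40, edgeR adjusted p = 0.0347) with 2 against 2 and -4.37 (SE 1.11, adjusted p = 0.891) with 3 against 3. Ccno, which encodes cyclin O, behaved alike, at 62.1, 1.06 and 85.2 CPM against 6.24, 1.29 and 5.55 CPM.

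Among the rest, Vil1, which encodes the actin-binding protein villin, was at 24.3, 1.42 and 30.5 CPM in controls and 0.322 to 0.698 CPM in knockouts. Tmc2, known from the mechanotransduction channel of hair cells, was at 15.2, 2.48 and 22.1 CPM against 0.142 to 1.13 CPM. Both genes are known for roles outside the ovary, and in both control 3 stood much nearer to the knockouts than to the other controls.

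Esrp1 and Prdm16 kept a measurable level without FIGLA. Esrp1, a splicing regulator of epithelia and germ cells, was at 199, 34.1 and 250 CPM in controls and 21.3, 20.5 and 15.7 CPM in knockouts, a log2 fold change of -3.62 (SE 0.26, edgeR adjusted p = 0.0347) with 2 against 2. Prdm16, a chromatin regulator, was at 104, 18.4 and 118 CPM against 8.23, 12.6 and 11.8 CPM. Control 3 was the lowest control in both and stood nearer to the knockouts than to the other controls.

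In a smaller set all 3 controls stood well above the knockouts, though control 3 was still the lowest control for Aen. Aen, which encodes a nuclease induced by p53, was at 161, 59.4 and 129 CPM in controls and 17.2, 17.1 and 20.7 CPM in knockouts, a log2 fold change of -2.68 (SE 0.35, edgeR adjusted p = 0.163) with 3 against 3 and -2.96 (SE 0.23, adjusted p = 0.0347) with 2 against 2. It was called in 8 of 17 fits, with adjusted p from 4.54e-11 to 0.757. Here every knockout was near 20 CPM and no control came below 59.4 CPM.

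Pkd1l1, a polycystin gene known from left-right patterning, was named after its values were seen. It stood at 26.2, 27.0 and 26.6 CPM in controls and 1.35, 1.77 and 5.70 CPM in knockouts. The controls were nearly level, and knockout 4 was the highest knockout. The log2 fold change was -3.25 (SE 0.50, edgeR adjusted p = 0.255), and with 2 against 2 the adjusted p was 0.371. It was called in 6 of 17 fits, among them those without knockout 4 (0.0248), with the block (0.0359) and by DESeq2 (2.66e-08). Synj1, a phosphoinositide phosphatase gene also named after its values were seen, was at 389, 202 and 282 CPM against 75.3, 96.2 and 110.1 CPM (log2 fold change -1.64, SE 0.26, adjusted p = 0.272).

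Of the 10 genes of smallest unadjusted p with every knockout below every control, most were of low level, and control 3 stood well above the knockouts in each. After Gm44601 they were A730082K24Rik, Gal3st2c, Olfr681, Gucy2f, Gm44873, Aen, 4930519G04Rik, Gm27164 and E330023G01Rik. The lincRNA A730082K24Rik was at 8.42, 3.55 and 11.6 CPM in controls and held 3 counts in all knockouts together, a ratio of 92.6 (95% counting interval 31.3 to 452). Gucy2f, a guanylate cyclase of photoreceptors, was at 11.2, 6.39 and 9.70 CPM against 0.499, 1.29 and 0.712 CPM. The olfactory receptor gene Olfr681 was at 4.90, 3.55 and 3.36 CPM against 0.20, 0.161 and 0 CPM. Apart from Gm44601, the edgeR adjusted p of the other 9 lay between 0.144 and 0.163 with 3 against 3, and between 0.00467 and 0.0424 with the replicate block.

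**Figure D2:**
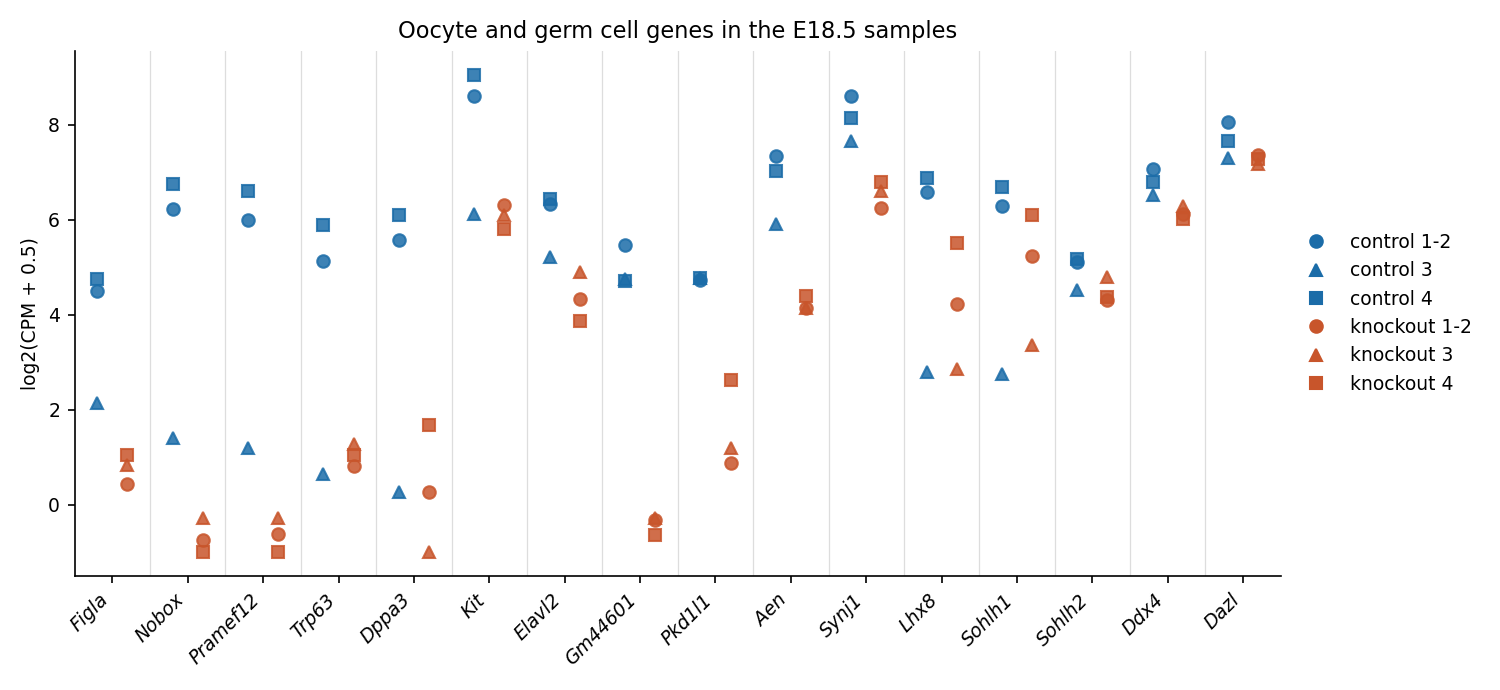
Level of 16 oocyte and germ cell genes on the log2(CPM + 0.5) scale (y axis) in each E18.5 sample, controls in blue and knockouts in orange, with circles for sample 1-2, triangles for sample 3 and squares for sample 4. Control 3 lies with or near the knockouts for Nobox (2.13 CPM), Trp63 and Dppa3 and with the other controls for Gm44601 (26.3 CPM) and Pkd1l1, while Lhx8 and Sohlh1 are low in sample 3 of both genotypes.

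Oocyte transcription factors differed in the size of their change. Of 9 in the table, 8 could be tested with 3 against 3, and 0 were called. The 2 without overlap, Figla and Nobox, lay below all controls, as did 3.91% of all tested genes. The log2 fold change was negative for all 8, with a median of -0.58, against 0.0148 over all genes. With 2 against 2, Figla and Nobox were called. Lhx8, a LIM homeobox factor of early oocytes, was at 95.2, 6.39 and 118 CPM in controls and 18.2, 6.77 and 44.9 CPM in knockouts. Sohlh1, a helix-loop-helix factor upstream in the same network, was at 77.2, 6.21 and 103 CPM against 37.2, 9.83 and 68.2 CPM. For both genes control 3 and knockout 3 were the lowest of their groups and close to each other. The edgeR adjusted p was 0.9999 for both with 3 against 3.

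Sohlh2 and Taf4b, which encode a helix-loop-helix factor and a subunit of a general transcription complex enriched in germ cells, were at 22.5 to 35.5 and 75.3 to 98.4 CPM in controls and at 19.2 to 27.4 and 55.5 to 85.6 CPM in knockouts. Both overlapped between groups. The known partners of FIGLA, the E protein genes Tcf3, Tcf4 and Tcf12, and the 4 Id genes that oppose them had a median log2 fold change of 0.0238 over 7 tested genes, with 0 called and none without overlap. Of these, Id1 had the smallest p, at 126, 48.8 and 97.5 CPM against 63.1, 43.2 and 34.7 CPM (log2 fold change -0.95, SE 0.36, edgeR adjusted p = 0.9999).

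Zona pellucida genes were just being read at this age. Zp2 had 14.5, 0 and 42.1 CPM in controls and no count in any knockout. Over the group that is at least 210.5-fold lower, from a floor of 3 counts over the 3 knockouts, with control 3 itself at 0. Zp3 was at 1.44, 0.177 and 8.71 CPM against 0.0998, 0.161 and 0 CPM, a ratio of 34.3 (95% counting interval 11.4 to 169). Zp1 was at 0.865, 0 and 4.48 CPM, with 2 counts in knockouts, a ratio of 27.3 (interval 7.19 to 232). The 3 genes were too low for the 3 against 3 fit; with 2 against 2 the edgeR adjusted p was 0.118 for Zp2, 0.416 for Zp3 and 0.543 for Zp1. With no filter on low counts all 3 passed (0.00034, 0.00983 and 0.0488), and Zp2 also passed without control 3 (0.0438).

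The secreted growth factor genes of the oocyte differed less. Gdf9 was at 3.23, 1.42 and 5.22 CPM in controls and 2.44, 1.93 and 1.71 CPM in knockouts, and its groups overlapped (log2 fold change -0.69, SE 0.47, edgeR adjusted p = 0.9999). Bmp15 was at 0.634, 0.709 and 1.74 CPM against 0.449, 0.322 and 0.285 CPM, too low to be tested. Of the 12 genes of the zona and secreted list, 3 were tested with 3 against 3 and 7 with 2 against 2, and 0 were called in either.

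Maternal effect genes, whose products are stored for the embryo, were led by genes near 0 in knockouts. Of 27 on the list, 7 were tested with 3 against 3 (0 called, 1 without overlap, Pramef12) and 17 with 2 against 2 (1 called, Pramef12). Of all genes tested with 3 against 3, 3.91% lay below all controls. Dppa3, also called Stella, was at 47.1, 0.709 and 68.3 CPM in controls and 0.698, 0 and 2.71 CPM in knockouts, with an edgeR adjusted p of 0.0957 with 2 against 2 and 0.00467 with the replicate block. Nlrp5, which encodes MATER of the subcortical maternal complex, was at 43.3, 0.177 and 131 CPM against 0.499, 0.645 and 0 CPM (adjusted p = 0.0888). Nlrp4f was at 32.3, 0.355 and 84.7 CPM with 4 counts in all knockouts, and it has close paralogs that can share reads. Tcl1 was at 21.6, 0.532 and 33.3 CPM against 0.0499, 0.484 and 0.427 CPM. In each of these 4 genes control 3 was within the range of the knockouts or within 0.05 CPM of it, and both other controls were above 20 CPM.

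Genes for RNA-binding and translation factors of oocytes held a few members without overlap. Of 16 tested, 0 were called, 4 lay below all controls and 1 above, and the median log2 fold change was -0.24. Over all tested genes, 3.91% lay below and 3.46% above. Elavl2, a neuronal-type RNA-binding protein gene that oocytes also use, was at 79.8, 36.5 and 86.3 CPM in controls and 19.8, 29.5 and 14.1 CPM in knockouts (log2 fold change -1.69, SE 0.38, edgeR adjusted p = 0.766). Cpeb1, which controls the poly(A) tails of stored mRNAs, was at 228, 97.0 and 247 CPM against 75.5, 72.1 and 88.0 CPM (log2 fold change -1.28, SE 0.33, adjusted p = 0.891). Lsm14b, of messenger ribonucleoprotein particles, was at 235, 117 and 312 CPM against 115, 111 and 117 CPM, so control 3 stood at the level of the knockouts.

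Among receptors and junction genes, Kit, the receptor by which oocytes respond to KIT ligand, was at 392, 68.6 and 532 CPM in controls and 79.2, 68.0 and 55.1 CPM in knockouts. Control 3 lay inside the range of the knockouts. The log2 fold change was -2.29 (SE 0.63, edgeR adjusted p = 0.9999) with 3 against 3 and -2.80 (SE 0.29, adjusted p = 0.0585) with 2 against 2. Jag2, a Notch ligand of oocytes, was at 113, 50.9 and 216 CPM against 32.6, 46.3 and 35.9 CPM and did not overlap (adjusted p = 0.984). Gja4, the gap junction gene of the oocyte surface, was at 19.3, 7.63 and 24.6 CPM against 7.43, 11.1 and 7.97 CPM and did overlap. Of the 15 tested members of this list 0 were called and 1, Jag2, lay below all controls, against 3.91% of all tested genes. The median log2 fold change of the list was -0.0426.

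Germ cell reference genes, some of them meiotic, stood somewhat lower in sum in knockouts, and none of them passed the test. The 8 reference genes were Ddx4, Dazl, Sycp3, Sycp1, Smc1b, Stag3, Hormad1 and Mael. They summed to 1752, 1341 and 1327 CPM in controls and 1180, 1160 and 1090 CPM in knockouts, so the sums did not overlap. Control 3 was level with control 4 in the sum, but its members differed. Stag3 was highest in control 3, while Ddx4 and Dazl were lowest there among controls. All 8 had a negative log2 fold change, with a median of -0.36. Ddx4 was at 135, 91.5 and 111 CPM against 68.9, 78.2 and 64.5 CPM (log2 fold change -0.68, SE 0.18, edgeR adjusted p = 0.948). Dazl, a germ cell RNA-binding protein gene, was at 267, 156 and 202 CPM against 164, 144 and 155 CPM, with an overlap between groups.

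The oocyte genes were also set against these 8 genes. Per 1000 reference counts of the same sample, control samples held Nobox at 42.6, 1.59 and 81.1 and knockout samples at 0.0846, 0.278 and 0. Figla was at 12.6, 2.91 and 20.0 against 0.719, 1.11 and 1.44. Gm44601 was at 25.1, 19.6 and 19.2 against 0.254, 0.278 and 0.131. Taf4b was at 47.1, 73.4 and 56.7 against 47.4, 73.8 and 51.0, and Sohlh2 at 19.3, 16.8 and 26.7 against 16.3, 23.6 and 18.6. On this scale Nobox, Figla, Gm44601, Aen and Pkd1l1 stayed apart between the groups, whereas Taf4b and Sohlh2 covered the same range in both. In Kit, Trp63, Dppa3, Lhx8, Sohlh1 and Gdf9 control 3 lay within or below the range of the knockouts. Kit, for one, was at 51.2 in control 3 and at 50.6 to 67.1 in knockouts. No test was made.

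Meiotic prophase genes showed a different split. Of 35 tested, 0 were called and 5 lay below all controls, against 3.91% of all tested genes. The median log2 fold change was -0.31. Syce1, of the central element of the synaptonemal complex, was at 37.8, 30.7 and 40.6 CPM in controls and 19.11, 22.4 and 23.9 CPM in knockouts (log2 fold change -0.74, SE 0.18, edgeR adjusted p = 0.824). Terb1, which ties telomeres to the nuclear envelope, was at 31.5, 43.6 and 30.9 CPM against 15, 27.6 and 11 CPM. The cohesin gene Smc1b was at 460, 418 and 379 CPM against 305, 349 and 334 CPM. In these genes control 3 stood with the other controls.

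Several meiotic genes were highest in sample 3 of both genotypes, a pattern picked out after the values were seen. In 16 of the 35 meiotic genes control 3 was the highest control and knockout 3 the highest knockout, against 19% of all tested genes. Dmc1, the meiotic recombinase gene, was at 11.1, 44.5 and 9.58 CPM in controls and 15, 24.3 and 6.83 CPM in knockouts. Msh5, which acts on recombination intermediates, was at 10.3, 51.4 and 7.71 CPM against 10.8, 23.9 and 11.8 CPM. Stag3, a meiotic cohesin gene, was at 139, 299.5 and 121 CPM against 145, 196 and 136 CPM. Stra8, which marks the entry into meiosis, was at 6.92 CPM in control 3 and at 0.124 to 0.322 CPM in the other 5 samples.

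The piRNA pathway, which silences transposons in germ cells, showed the reverse in sample 3. In 12 of 22 tested genes sample 3 was the lowest of both groups, against 18.3% of all tested genes. The same held for 4 of 7 tested maternal effect genes and 8 of 16 tested oocyte RNA-binding genes. It was thus not particular to the piRNA list, and it too was picked out after the values were seen. Tdrd1 was at 244, 29.1 and 335 CPM in controls and 40.5, 31.0 and 100.1 CPM in knockouts. Between genotypes 0 of the 22 were called and 5 lay below all controls, against 3.91% of all tested genes. The median log2 fold change was -0.55. Tdrkh, which helps trim piRNAs, was at 52.5, 48.2 and 52.3 CPM against 24.6, 30.6 and 24.5 CPM (log2 fold change -0.94, SE 0.15, edgeR adjusted p = 0.286), with all controls level; it shares 2255 exonic bases with the antisense gene Oaz3. Henmt1, which methylates piRNA ends, was at 12.3, 3.37 and 12.3 CPM against 2.54, 2.10 and 3.13 CPM. Control 3 and knockout 3 were thus each the highest of their group for Dmc1, Msh5 and Stag3 and the lowest for Lhx8, Sohlh1 and Tdrd1; the part of this in the low Nobox, Kit and Zp2 of control 3 was not tested.

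**Figure D3:**
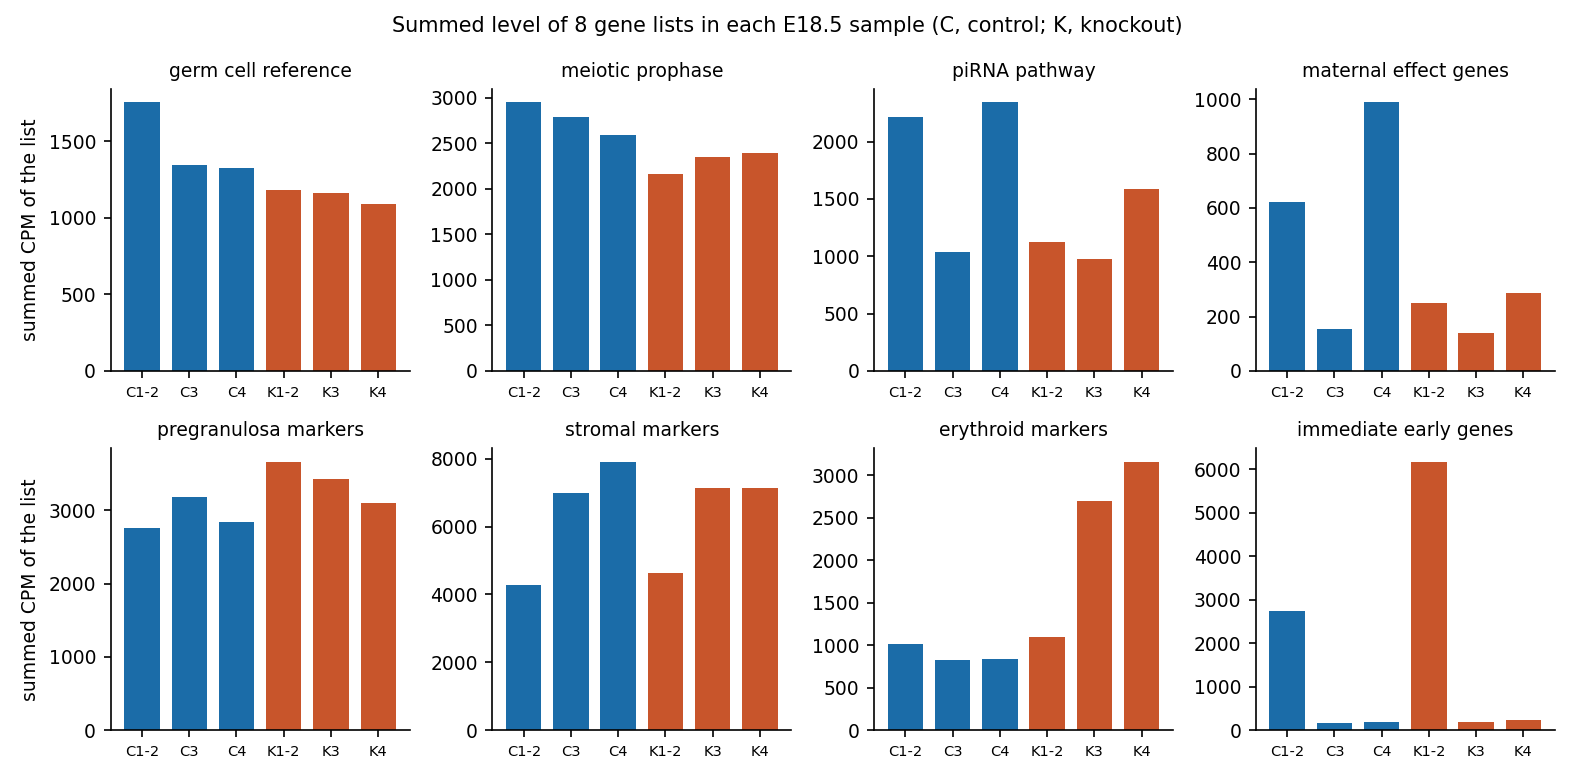
Summed CPM (y axis, from 0) of 8 gene lists in each E18.5 sample, controls (C) in blue and knockouts (K) in orange. Germ cell reference genes are lower in all knockouts (1090 to 1180 CPM) than in all controls (1327 to 1752 CPM), maternal effect genes are low in control 3 (155 CPM), red cell genes are high in knockouts 3 and 4, and immediate early genes are high in sample 1-2 of both genotypes.

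No gene passed the edgeR test as higher in knockouts with 3 against 3 or 2 against 2. Genes were called higher by DESeq2 (16), by edgeR with no filter on low counts (63) and by edgeR with the replicate block (3). Among genes with every knockout above every control, the 10 of smallest unadjusted p were Trib3, Hba-a2, Bbc3, Sp5, Brdt, Gm43352, Ctcfl, Ube2l6, Atf5 and Mgll. Bbc3, which encodes the cell death activator PUMA, was at 5.82, 6.92 and 6.47 CPM in controls and 12.5, 11 and 15.4 CPM in knockouts (log2 fold change 1.02, SE 0.22, adjusted p = 0.692). Trib3, a pseudokinase gene of the stress response, was at 4.55, 2.13 and 1.62 CPM against 9.53, 13.1 and 13.7 CPM (log2 fold change 2.05, SE 0.41, adjusted p = 0.501), and it passed in 2 of 17 fits, DESeq2 and edgeR with no filter. Sp5, Brdt, Hba-a2 and Gm43352 passed in the same 2 fits. The stress response factor gene Atf5 was at 15.4, 19.7 and 23.0 CPM against 29.7, 35.1 and 40.2 CPM. Sesn2, a stress-induced sestrin gene, was at 31.2, 31.4 and 28.6 CPM against 42.2, 38.9 and 47.8 CPM.

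Germline chromatin genes were among the 10. Brdt, a bromodomain gene known from the testis, was at 23.1, 21.1 and 22.9 CPM in controls and 37.8, 36.6 and 62.5 CPM in knockouts (log2 fold change 1.02, SE 0.23, edgeR adjusted p = 0.789). Ctcfl, the germline relative of CTCF, was at 0.98, 0.532 and 0.498 CPM against 2.15, 2.58 and 5.55 CPM. Sp5, a target of Wnt signalling, was at 23.3, 23.4 and 16.8 CPM against 43.1, 32.1 and 50.0 CPM. Gm43352 was at 0.519, 1.06 and 0.373 CPM against 5.24, 1.61 and 13.5 CPM, and it shares 1208 exonic bases with Lef1 on the other strand.

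Red cell genes made up part of the higher values. Of 8 tested markers, 4 globin genes lay above all controls, against 3.46% of all tested genes. Of the 8, 0 were called, and the median log2 fold change was 1.23. Hba-a2 was at 86.5, 72.7 and 98.0 CPM in controls and 125, 180.4 and 177 CPM in knockouts. The membrane gene Slc4a1 was at 187, 208 and 94.4 CPM against 120.0, 887 and 1385 CPM, high in knockouts 3 and 4 only. The proliferation gene Mki67 was at 400, 482 and 292 CPM against 293, 814 and 1097 CPM, and Lyz2, of myeloid cells, reached 182 CPM in knockout 4 against 7.22 to 25.7 CPM elsewhere. The samples high in these genes differed from gene to gene, and the part of blood cells in the higher genes was not tested.

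No somatic gene list held a called gene with 3 against 3. Over all tested genes, 3.46% had every knockout above every control and 3.91% every knockout below, which are the shares to set beside the counts here. Of 19 tested pregranulosa markers 0 were called and 2 lay above all controls, Kitl and Amhr2, with a median log2 fold change of 0.17. Kitl, which encodes the ligand of KIT, was at 708, 786 and 591 CPM in controls and 940, 882 and 789 CPM in knockouts (log2 fold change 0.32, SE 0.17, edgeR adjusted p = 0.9999). Stromal, endothelial and surface epithelium lists held 0 called genes of 13, 10 and 10 tested, with medians of -0.0214, 0.0390 and 0.229. Of 9 tested Sertoli markers 0 were called; Sox9 was at 42.9, 12.6 and 17.3 CPM against 108, 15 and 16.1 CPM, high in sample 1-2. Of 9 tested macrophage markers 0 were called and 3 lay above all controls (Lyz2, Cd68 and C1qa), with a median log2 fold change of 0.35. Of 20 tested p53 targets and death genes 0 were called with 3 against 3 and 1, Trp63, with 2 against 2; 4 lay above all controls (Bbc3, Sesn1, Sesn2 and Bcl2l1), with a median of 0.12. Of 17 tested Notch genes 0 were called. Fgf9, a growth factor on the Sertoli list, lay below all controls, at 7.03, 6.92 and 6.47 CPM against 4.79, 4.19 and 3.42 CPM.

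At P0 the same knockout was read in other ovaries, which share no sample with those at E18.5. In 1 edgeR model of all 12 Figla samples, 1098 of 18379 genes were lower in P0 knockouts (5.97%) and 265 higher (1.44%). All 18 genes called at E18.5 with 2 against 2 were also called lower at P0. Of the 630 genes with every E18.5 knockout below every control, 254 were called lower at P0 and 0 higher. Those are 254 of the 884 P0-lower genes that were tested at E18.5. Of the 558 genes with every E18.5 knockout above, 61 were called higher at P0 and 1 lower, out of 242 P0-higher genes tested at E18.5.

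The levels at P0 are set beside those at E18.5 without a test between the ages. P0 values were scaled by TMM over all Figla samples and E18.5 values over the E18.5 samples alone, so the 2 scales are not the same. Figla stood at 36.9 ± 4.34 CPM in P0 controls and 0.372 ± 0.235 CPM in P0 knockouts (SD, n = 3), Nobox at 167 ± 14.9 and 0.0598 ± 0.0528 CPM. Zp2 reached 97.3 ± 46.4 CPM and Zp3 27.3 ± 21.6 CPM in P0 controls, and both had no count in P0 knockouts. Kit was at 835 ± 287 CPM in P0 controls and 65.9 ± 26.8 CPM in P0 knockouts, the latter close to the 55.1 to 79.2 CPM of E18.5 knockouts. Gm44601 was at 21.2 ± 6.68 and 0.14 ± 0.125 CPM and Aen at 138 ± 20.9 and 21.8 ± 1.62 CPM, near their levels at E18.5. Among higher genes, Sp5 and Brdt were called higher at P0 (log2 fold changes 1.99 and 1.14, edgeR adjusted p = 0.00181 and 0.00625), while Trib3 (0.28) and Mgll (0.061) were not.

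**Figure D4:**
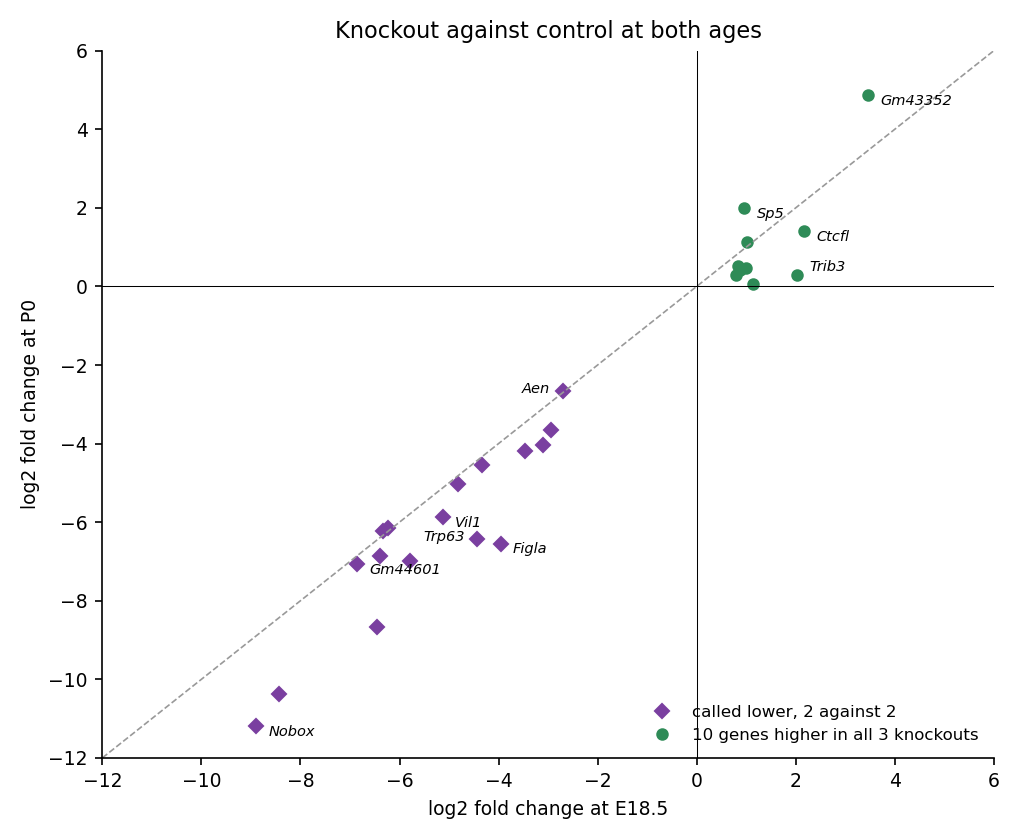
Log2 fold change of knockout against control at E18.5 (x axis) and at P0 (y axis) from 1 model of all Figla samples, for 17 of the 18 genes called lower with 2 against 2 (diamonds) and the 10 genes of smallest p with every E18.5 knockout above every control (circles). The 17 lie below 0 at both ages, most of them below the dashed line of equality, and the 10 lie above 0 at both.

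Whether the effect differed between ages was tested as a contrast in that model. The difference passed for 0 of 18379 genes (0%) by edgeR, with 977 at an unadjusted p under 0.05. That is close to 0.05 of the genes tested, the share awaited with no effect. For Figla the E18.5 effect minus the P0 effect was 2.59 (SE 0.93, adjusted p = 0.912), for Kit 1.34 (adjusted p = 0.920) and for Aen -0.0385 (adjusted p = 0.994). The gene of smallest p with a lower effect at E18.5 was Tbx18, with log2 fold changes of 1.46 at E18.5 and 4.73 at P0. The gene of smallest p with a higher effect at E18.5 was Tmem14c, with -0.10 and -2.17. Neither difference passed (adjusted p = 0.912 for both).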

How the data were processed

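Raw counts of reads per gene were deposited by the authors as 1 table per library with 49585 genes, of which 49326 matched a symbol. The submitters' processing notes name cutadapt for trimming, HISAT2 for alignment and the build GRCm38.p5 (with no versions). Counting was with featureCounts 1.6.0 on GENCODE M12 and ignored strand, per the file headers, so reads of overlapping antisense genes are not kept apart, and close paralogs can lose or share reads. Per the labels' protocols, ovarian mRNA was made into double-stranded cDNA and Nextera libraries. The Lhx8 libraries were not used here, and 1 of the called genes is not reported here.

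Near-identical libraries were summed, which left 3 samples per group. The filter on low counts was filterByExpr with a minimum count of 10 and a minimum total of 15. Samples were scaled by TMM and tested with edgeR 4.0.16 in R 4.3.3, at a Benjamini-Hochberg adjusted p under 0.05 and no minimum fold. The scripts were tested on simulated data. DESeq2 1.42.0 and limma 3.58.1 were alternatives, as were other scalings, filters and sets of samples. Ratios for 1 to 3 counts carry exact 95% intervals, and folds against 0 use a floor of 3 counts over the group; both cover counting error only.

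Libraries, gene lists and tests were chosen with earlier results of these data known. Named genes were: 12 set genes; those called with 3 against 3; those called with 2 against 2 and not overlapping, up to 15 each way; the 10 of smallest p each way among genes not overlapping; up to 4 of smallest p per list; and 5 each way for the difference between ages. Others were named after their values were seen: Tsga8, Ccno, Pkd1l1, Synj1, Bmp15, Nlrp5, Nlrp4f, Tcl1, Tdrd1, Foxl2, Dmc1, Msh5, Stag3, Stra8, Slc4a1 and Egr1.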

Additional observations from a re-analysis of the deposited data

How the results depend on the processing

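The count of 1 lower gene stayed at 1 with RLE scaling, with 1 library of each near-identical pair and with limma voom. It was 18 without control 3 and knockout 3 together and 15 on the genes of the 3 against 3 fit (an alternative chosen after seeing the data), 34 with each library as its own sample, 62 with DESeq2, 53 in 1 model of all Figla samples and 166 with no filter on low counts. Leaving out 1 sample each gave 0 (without knockout 3) to 89 (without control 3) lower genes and 0 to 0 higher genes. The count of 0 higher genes was 16 with DESeq2 and 63 with no filter. The difference between ages stayed at 0 genes when any sample was left out, and was 63 with no filter on low counts. With no filter more genes were tested; for the other settings the cause was not tested.

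With a block for the order of the library numbers (a control and the next knockout), 25 genes were lower and 3 higher. The labels give no pairing; deviations of neighbouring samples correlated at 0.581, 0.53 and 0.272, and every sample correlated best with its neighbour, which is a hint from the data and not from the design. No log2 fold change of the 76 genes refitted under the alternatives changed sign. Many of these genes were named for a small p or for groups without overlap, so a change of sign was unlikely from the start. Per germ cell reference, taking Ddx4 alone turned the log2 ratio of Sohlh1 from -0.30 to 0.14, Sohlh2 from -0.10 to 0.21, Taf4b from -0.04 to 0.23 and Gdf9 from -0.37 to 0.0038, each a move of less than the spread between samples. Depth limits genes under about 1 CPM, which hold few counts per sample.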
